A study of Rattus norvegicus with 4 samples.

Results

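The genes described here make cholesterol and fatty acids: 18 members of the sterol arm and 13 members of the fatty acid arm. They were chosen by gene name, as 31 of the 31868 gene names tested and 51 of the 36713 probes tested. All 31 passed the filter on dim probes. Sc5dl is on the array under its current symbol Sc5d and was matched through that name. Stearoyl-CoA desaturase Scd1 is now called Scd, and Sc4mol is now Msmo1.

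The samples were cultures of olfactory ensheathing cells, the glia that accompany the axons of smell neurons from the nose into the brain. The cells came from the olfactory mucosa or the olfactory bulb of male Fischer rats and were grown by 1 shared method. Each of 4 arrays compared 1 mucosa culture, in the red dye Cy5, with 1 bulb culture, in the green dye Cy3, as 1 of 4 biological replicates. The cDNA of polyadenylated RNA was copied by PCR before labelling. The dyes were not swapped, so a difference between tissues and a difference between dyes cannot be told apart. Ages and the number of animals in a culture are not given in the sources used here. The p-values rest on the spread between these 4 pairs, drawn for each gene toward the spread of all genes.

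Cholesterol is built from acetyl-CoA through mevalonate, isoprenoid diphosphates, squalene and lanosterol. Fatty acids are built from the same acetyl-CoA by carboxylation and chain synthesis, and are then elongated, desaturated and activated to acyl-CoA. Both arms are switched on by transcription factors of the SREBP family, Srebf2 mainly for sterols and Srebf1 mainly for fatty acids, and Insig1 holds their precursors in the endoplasmic reticulum when sterol is plentiful. Glia use both arms for their own membranes and for the lipids of myelin.

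The members that passed the test were the neighbouring desaturase genes Scd1 and Scd2, so the sequences that measure them are shown first. Each probe has 60 bases, and the first 30 are given, 5′ to 3′, with the position of the whole probe in the rn4 build, per the file headers.
Scd1, chr1:249459057-249459116: agtcctgataaaacaggctcctaatactga
Scd2, chr1:249370837-249370896: gggatcctcagcagaggagtatttaagtcc
Scd2, chr1:249365537-249365596: gtgccctggtactgctggggtgagacgttt
Scd2, chr1:249369161-249369220: atgtccggtcccagcagagatacaacctct
The Scd1 probe lay 88.2 kb from the nearest Scd2 probe. Its longest run of bases in common with any of the 3 Scd2 probes was 7. No annotation of exons in rn4 was used here. In the gene order of the GRCr8 assembly, 1 gene, Scd4, lies between them.

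The promoters of the pair are shown because these genes moved the same way. Each sequence is the 250 bases before the annotated start, 5′ to 3′ on the strand of the gene, from RefSeq in the GRCr8 build. Capitals mark CCAAT or its complement, the box bound by the factor NF-Y, which is known to act beside SREBP factors at many lipid genes.
Scd1, chr1:253231732-253231981, minus strand: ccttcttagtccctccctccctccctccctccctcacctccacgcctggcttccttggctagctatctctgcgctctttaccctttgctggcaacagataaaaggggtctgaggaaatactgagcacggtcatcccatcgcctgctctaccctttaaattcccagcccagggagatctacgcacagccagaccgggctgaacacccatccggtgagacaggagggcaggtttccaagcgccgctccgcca
Scd2, chr1:253118127-253118376, plus strand: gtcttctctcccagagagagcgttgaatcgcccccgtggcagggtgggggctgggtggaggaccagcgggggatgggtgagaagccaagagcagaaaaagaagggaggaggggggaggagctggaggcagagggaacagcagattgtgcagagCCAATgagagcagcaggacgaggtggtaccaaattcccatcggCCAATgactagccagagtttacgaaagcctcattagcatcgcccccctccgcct
The Scd2 window held CCAAT 97 and 54 bases before the start, and the Scd1 window held none. Of the 24 members with a promoter entry, 18 held CCAAT on either strand, against 34.0% of all 33469 promoters. By arm these were 11 of 14 sterol genes and 7 of 10 fatty acid genes. Examples from both arms, with 8 bases on each side of the box, are as follows.
Hmgcs1: gtccggtgATTGGctgagata
Fdps: tcattcagCCAATcagcgaac
Acly: gcgtgtgcCCAATcgccaggc
Fads1: cggctcagCCAATgggagggc
The sterol regulatory element TCACNCCAC was matched in 0 of the 24 windows, on either strand, and in 0.974% of all promoters. The E-box CACGTG was matched in 3 members, Elovl5, Insig1 and Sc5dl, and in 5.59% of all promoters. None of these matches overlapped another. A match describes letters in the window, and the absence of one says nothing about the factor.

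Over all probes, Cy5 median signals were 842 and 839 on the arrays of replicates 1 and 2 and 567 and 598 on those of replicates 3 and 4, while Cy3 medians ranged from 342 to 382. The share of spots well above background ranged from 82.8% to 91.1% of a channel. Sox10, S100b and Ngfr, markers that ensheathing cells share with Schwann cells, were well above background in both channels of all 4 arrays. Each passed the test as lower in mucosa cells, at mean log2 ratios of -1.87, -1.49 and -1.27. The full list of these markers is counted further below. Of all gene names, 1031 were higher and 1079 lower in mucosa cells (limma with Benjamini-Hochberg adjustment at 0.05). With median centring in place of loess these counts were 1466 and 993. The smallest fold among the called names was 1.85 and, with 4 arrays, the precision of every value below is limited.

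Mucosa cells had less RNA of the stearoyl-CoA desaturases Scd1 and Scd2 than bulb cells, and these were the members that passed the test. Scd1 was 6.26-fold lower and Scd2 2.78-fold lower. No member was higher in mucosa cells past the threshold, against 3.24% of all gene names. The called members made up 2 of 31, or 6.45%, against 6.62% of all gene names, and the share called lower over all gene names was 3.39%. By arm, 0 of 18 sterol members and 2 of 13 fatty acid members, or 15.4%, passed. A level in a bulk culture is the same for fewer cells of a type as for less RNA per cell, and these cannot be told apart here.

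**Figure D1:**
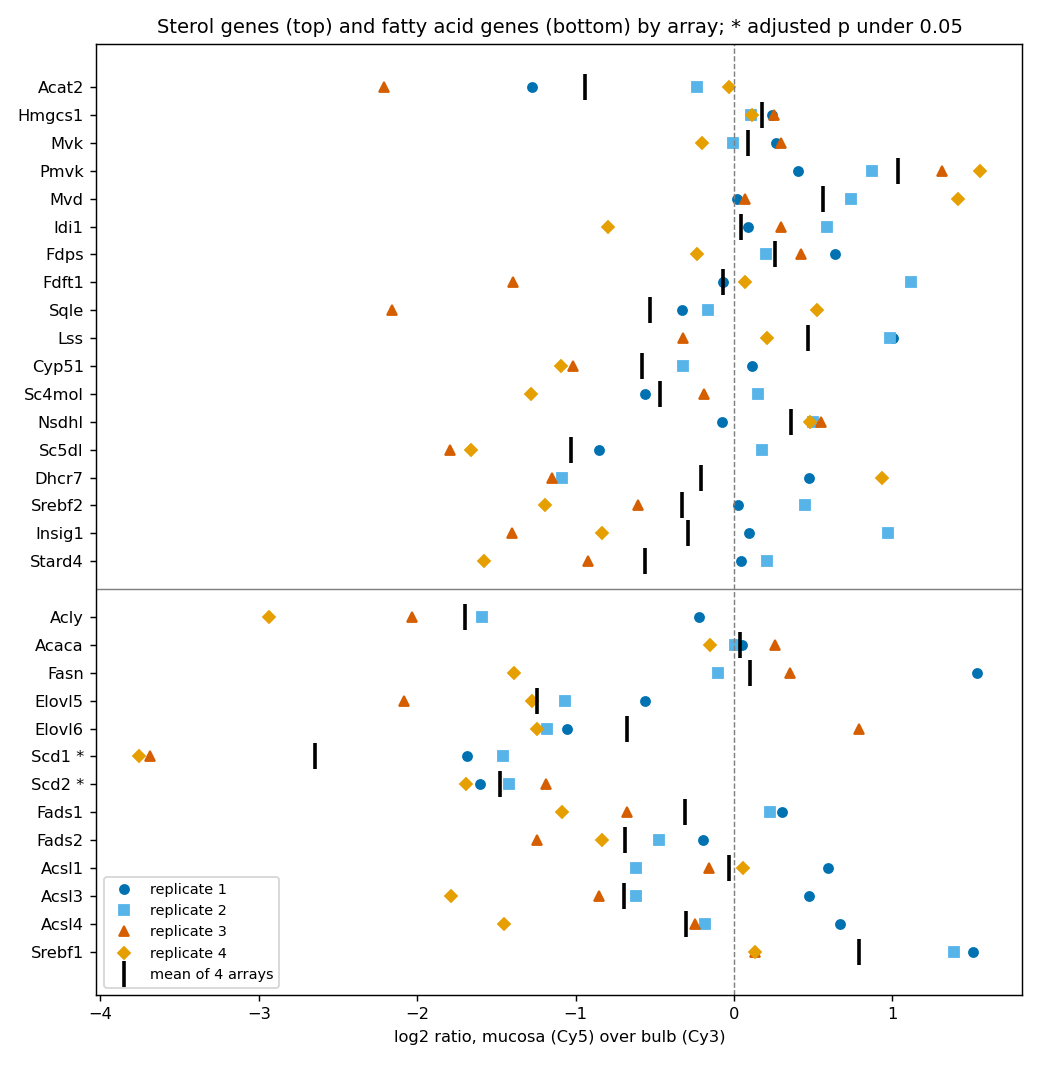
Log2 ratio of mucosa (Cy5) over bulb (Cy3) for each of the 31 genes, with 1 symbol per array and a black bar at the mean of the 4 arrays; sterol genes are in the upper block and fatty acid genes in the lower one. Scd1 and Scd2, marked by stars, lie left of 0 on all 4 arrays, at means of -2.65 and -1.47, while most sterol genes straddle 0.

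Scd1 and Scd2 place the double bond in stearic and palmitic acid and so make the monounsaturated fatty acids of membranes and stored fat. The normalized signal of Scd1 in mucosa cells was 469, 491, 114 and 96 in replicates 1 to 4, and in bulb cells it was 1510, 1349, 1471 and 1298. Every mucosa value was below every bulb value, and the mucosa values of replicates 3 and 4 were the low ones. Here and below, such overlap ignores the pairing and is no test, and its share over all gene names is not given. The log2 ratios were -1.69, -1.46, -3.68 and -3.76, with a mean of -2.65 ± 1.25 (SD, n = 4) and a 95% interval from -3.78 to -1.52 (limma, adjusted p = 0.0273 after Benjamini-Hochberg adjustment). Of all gene names, 0.405% had a lower mean ratio. The arrays with the low Scd1 values were also those of lower median Cy5 signal, and the part of that signal in the result was not tested.

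Scd2 is the desaturase form known for its high level in brain. Its brightest probe read 17386, 19570, 18479 and 14200 in mucosa cells and 52727, 52282, 42140 and 45812 in bulb cells, without overlap. The log2 ratios of -1.60, -1.42, -1.19 and -1.69 gave a mean of -1.47 ± 0.22 (SD, n = 4), with a 95% interval from -1.97 to -0.98 (limma, Benjamini-Hochberg adjusted p = 0.0135). The other Scd2 probes gave means of -1.29 ± 0.30 and -1.41 ± 0.20, so all 3 probes of this gene moved alike. The arrays thus differed less for Scd2 than for Scd1, whose SD was 1.25.

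The calls depended on the arrays used. Over all gene names the calls also became fewer with 3 arrays, from 2110 with all arrays to 562 without replicate 1. Without any 1 replicate Scd1 missed the threshold, at limma adjusted p between 0.0507 and 0.0829 and mean log2 ratios between -3.04 and -2.28. Scd2 missed it without replicate 1, 2 or 4 (limma adjusted p = 0.0665, 0.0729 and 0.0520) and passed it without replicate 3 (0.0351), with means between -1.57 and -1.40. With the scanner's own processed signals Scd1 had a log2 ratio of -3.18 and an adjusted p of 0.0663 in limma.

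The other desaturases, Fads1 and Fads2, add double bonds to polyunsaturated fatty acids. Fads2 was lower in mucosa cells on all 4 arrays, at log2 ratios of -0.19, -0.47, -1.24 and -0.83, and its mean of -0.69 ± 0.46 (SD, n = 4) did not pass (limma adjusted p = 0.160). Fads1 had log2 ratios of 0.31, 0.23, -0.67 and -1.09 and a mean of -0.31 ± 0.68, with signs that split between the arrays of replicates 1 and 2 and those of replicates 3 and 4. The 4 desaturases together had a median ratio of -1.08, with all 4 means below 0 and 2 of them called.

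Elongation and chain synthesis held the larger ratios that missed the threshold. Elovl5, which lengthens polyunsaturated chains (probe at chr8:82942431-82942490), read 2418, 2050, 971 and 1819 in mucosa cells and 3568, 4298, 4108 and 4402 in bulb cells. Those groups did not overlap. The mean log2 ratio of -1.25 ± 0.63 (SD, n = 4, 2.37-fold) had a limma adjusted p of 0.0584. Elovl6 lengthens saturated and monounsaturated chains. Its brightest probe had log2 ratios of -1.05, -1.18 and -1.24 on 3 arrays and 0.79 in replicate 3, with a mean of -0.67 ± 0.98. The other Elovl6 probe had ratios of -1.56, -1.24, 0.32 and 0.56.

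Acly, ATP citrate lyase, makes the cytosolic acetyl-CoA that feeds both arms (probe at chr10:89421079-89421138). It read 1459, 703, 404 and 304 in mucosa cells and 1701, 2116, 1649 and 2327 in bulb cells, again without overlap. Its log2 ratios of -0.22, -1.59, -2.03 and -2.94 spread widely, and the mean of -1.69 ± 1.13 (SD, n = 4; 3.24-fold) did not pass (limma adjusted p = 0.0752). Acaca, acetyl-CoA carboxylase, the committed step of fatty acid synthesis, sat near 0 at its brightest probe, with ratios of 0.05, 0.00, 0.26 and -0.15. Its other probe had a mean of -0.82 ± 1.95, with -3.66 in replicate 4. Fasn, the fatty acid synthase, had ratios of 1.54, -0.10, 0.36 and -1.39 and a mean of 0.10 ± 1.21, and its other probe had a mean of -0.27. For Acaca and Fasn the SD between arrays was larger than the mean.

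Acyl-CoA synthetases, which activate fatty acids for use, did not pass. Acsl3 had a mean log2 ratio of -0.70 ± 0.93, from 0.47 to -1.78. Acsl4 had -0.30 ± 0.87, from 0.67 to -1.45. Both had their highest ratio in replicate 1 and their lowest in replicate 4. Acsl1 had ratios of 0.60, -0.62, -0.16 and 0.06 at its brightest probe, and means of -1.04, 0.27 and -0.54 at its other probes, so its direction depended on the probe.

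Srebf1, the factor that drives fatty acid genes, had log2 ratios of 1.51, 1.39, 0.14 and 0.13 at its brightest probe, all above 0. Its signal was 2029, 1888, 865 and 700 in mucosa cells and 714, 719, 787 and 639 in bulb cells, so the groups overlapped. The mean of 0.79 ± 0.76 (SD, n = 4) did not pass (limma adjusted p = 0.205), and outlier spots were left out on 2 of the arrays. Its other probes had means of 0.21 and 0.88, and the former was at 0.13, 1.03, 0.35 and -0.67, below 0 in replicate 4. By brightest probes Srebf1 was the 1 fatty acid member above 0 on every array, while 5 of 13 were below 0 on every array.

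In the sterol arm, 0 members passed limma's adjusted threshold and 2 had an unadjusted p under 0.05. The largest positive ratio belonged to Pmvk, phosphomevalonate kinase (probe at chr2:181664843-181664902). It read 8749, 9020, 10940 and 11372 in mucosa cells and 6598, 4926, 4403 and 3866 in bulb cells, without overlap. The log2 ratios of 0.41, 0.87, 1.31 and 1.56 gave a mean of 1.04 ± 0.51 (SD, n = 4; 2.05-fold; limma adjusted p = 0.0698). With median centring, a trended variance or unpaired channels Pmvk passed, at limma adjusted p of 0.0297, 0.0385 and 0.0146.

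The largest negative sterol ratio belonged to Sc5dl, the desaturase of a late step. It read 681, 991, 348 and 405 in mucosa cells and 1227, 875, 1206 and 1279 in bulb cells, which overlapped through replicate 2. Its ratios of -0.85, 0.18, -1.79 and -1.66 had a mean of -1.03 ± 0.91 (limma adjusted p = 0.157, n = 4). Acat2, the thiolase that joins acetyl-CoA units at the start of the path, was below 0 on every array at -1.27, -0.23, -2.21 and -0.03. Its mean was -0.94 ± 1.01 (limma adjusted p = 0.216, n = 4), and its other probe had a mean of 0.11. The size of these ratios thus came from some arrays and not from all.

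The remaining mevalonate enzymes had means above 0 at their brightest probes, and none passed in limma. Hmgcs1, which makes HMG-CoA, had the tightest ratios of any member, 0.24, 0.11, 0.25 and 0.11, with a mean of 0.18 ± 0.08. Its 95% interval from -0.28 to 0.64 is wider than that SD alone would give. The fit draws the spread of a gene toward that of all genes. Its signal was 14987, 16009, 15127 and 15171 in mucosa cells and 12691, 14860, 12687 and 14043 in bulb cells. Its other probe had a mean of -0.53 ± 0.53, so a direction for this gene cannot be given. Mvk, mevalonate kinase, had a mean of 0.09 ± 0.24, and Mvd, the decarboxylase, 0.56 ± 0.66 with all 4 arrays above 0.

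The isoprenoid and squalene steps showed no shared direction. Fdps, farnesyl diphosphate synthase, had a mean log2 ratio of 0.26 ± 0.37, and each of its 3 probes had a mean above 0. Idi1, the isopentenyl diphosphate isomerase, had ratios of 0.09, 0.59, 0.30 and -0.79 at its brightest probe and a mean of -0.81 at its other. Squalene synthase Fdft1 had a mean of -0.07 ± 1.03, squalene epoxidase Sqle -0.53 ± 1.15 and lanosterol synthase Lss 0.47 ± 0.65. Sqle had its lowest ratio in replicate 3, at -2.16, and without that replicate its mean was 0.01.

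From lanosterol to cholesterol, 4 of 5 means were below 0, with a median of -0.47. Cyp51, the demethylase of lanosterol, had a mean log2 ratio of -0.58 ± 0.58, and Sc4mol, which oxidizes the methyl groups next, -0.47 ± 0.61. Nsdhl, which acts in the same demethylation, was the exception at 0.36 ± 0.30. Dhcr7, the reductase that yields cholesterol, had ratios of 0.48, -1.09, -1.15 and 0.93 and a mean of -0.21 ± 1.07. The limma adjusted p of these 4 genes (n = 4 arrays) lay between 0.262 and 0.794.

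The regulators of the sterol arm split by array. Srebf2 had log2 ratios of 0.03, 0.45, -0.61 and -1.19 at its brightest probe, and its other probe had a mean of 0.09. Insig1, itself a target of SREBP factors, had ratios of 0.10, 0.97, -1.40 and -0.83, and means of -0.41, -0.52 and 0.02 at its other probes. Stard4, a carrier of cholesterol in the cytosol, had ratios of 0.04, 0.21, -0.92 and -1.58 and was well above background in mucosa cells on 3 arrays only. At their brightest probes all of these were positive in replicates 1 and 2 and negative in replicates 3 and 4, as were the Fads1 ratios. The other Srebf2 probe broke that split, at 1.23, 0.25, 0.17 and -1.29.

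The medians of other lists had the same signs by array. The median ratio of the 5 macrophage markers was 1.47, 0.31, -1.40 and -1.75 in replicates 1 to 4, and that of the 6 genes of cycling cells was 0.49, 0.05, -0.95 and -0.47. Not every gene of these lists followed the split. Among macrophage markers, Csf1r and Itgam were at -0.38 and -0.27 in replicate 2, and Cd14 was at 0.07 in replicate 4. Among cycling genes, Top2a and Pcna were at -0.32 and -0.25 in replicate 2. Ccnb1 was at 0.65, 0.22, 1.26 and 0.11 and Cdk1 at 1.09, -0.12, 0.01 and 0.55. In both lists 0 genes passed in limma, and the summed macrophage signal was 3912 to 10328 in mucosa cells and 4500 to 11262 in bulb cells. The median Cy5 signal was also lower in replicates 3 and 4. The part of these in the results was not tested.

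Set side by side, the fatty acid arm had the lower ratios. The median over its 13 members was -0.67 and that over the 18 sterol members -0.14, against 0.01 over all gene names. On single arrays the fatty acid median was 0.05, -0.62, -0.67 and -1.28 in replicates 1 to 4, and the sterol median was 0.07, 0.21, -0.46 and -0.12. The fatty acid median was therefore below the sterol median on each array, by 0.02, 0.83, 0.21 and 1.16. The mean of that difference, 0.55 ± 0.53 (SD, n = 4), was about as large as its spread, and in replicate 1 the arms were alike. The sterol median changed sign with array weights (0.08) and without replicate 3 (0.05). With median centring it was 0.05, but the median of all gene names was then 0.08, so it still lay below that of all genes. The fatty acid median kept its sign in each of these, and was -0.39 with median centring and -0.33 without replicate 4.

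**Figure D2:**
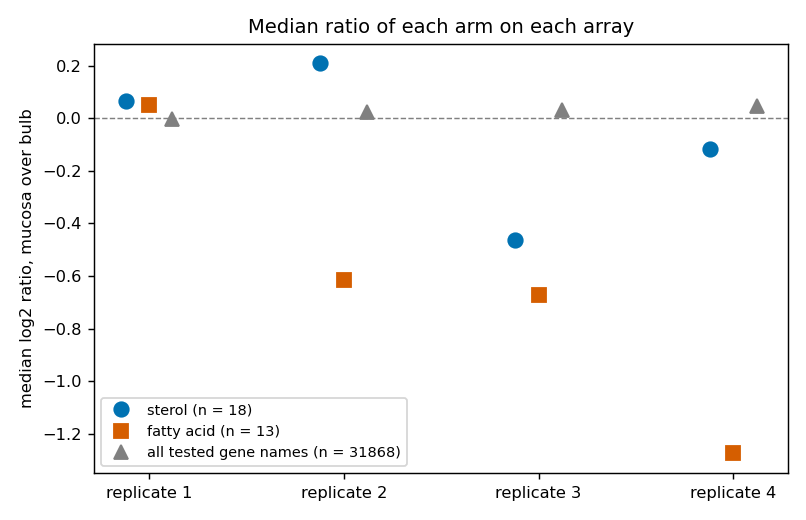
Median log2 ratio of mucosa over bulb on each array (replicates 1 to 4 on the horizontal axis) for the sterol genes, the fatty acid genes and all tested gene names. The fatty acid median lies between -1.28 (replicate 4) and 0.05 (replicate 1), and the sterol median lies above it on each array.

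Of the 31 members, 10 had the same sign on all 4 arrays, or 32.3%, which is close to the 33.6% of all gene names. Of these, 6 were lower on all 4, or 19.4%, against 15.7%, and 4 were higher, or 12.9%, against 17.8%. In the fatty acid arm 5 of 13 were lower on all 4 arrays and in the sterol arm 1 of 18. The median SD between arrays was 0.65 for sterol members and 0.76 for fatty acid members, against 0.53 for all gene names. A mean ratio of at least 1 in either direction was seen in 4 fatty acid members and 2 sterol members, or 19.4% of the 31, against 12.9% of all gene names.

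Probes of 1 gene did not always point the same way. Of 13 members with more than 1 probe, Scd2, Elovl6 and Acsl4 had all probe means below 0, and Fdps and Srebf1 had all of theirs above 0. The other 8 were Acat2, Hmgcs1, Idi1, Srebf2, Insig1, Acaca, Fasn and Acsl1, and each had probe means on both sides of 0. In Insig1 the probe with the mean of 0.02 was flat on all arrays, at -0.05, 0.20, -0.09 and 0.01, while its other 3 followed the split between arrays. The probe that stood for a gene was the one of highest mean intensity.

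**Figure D3:**
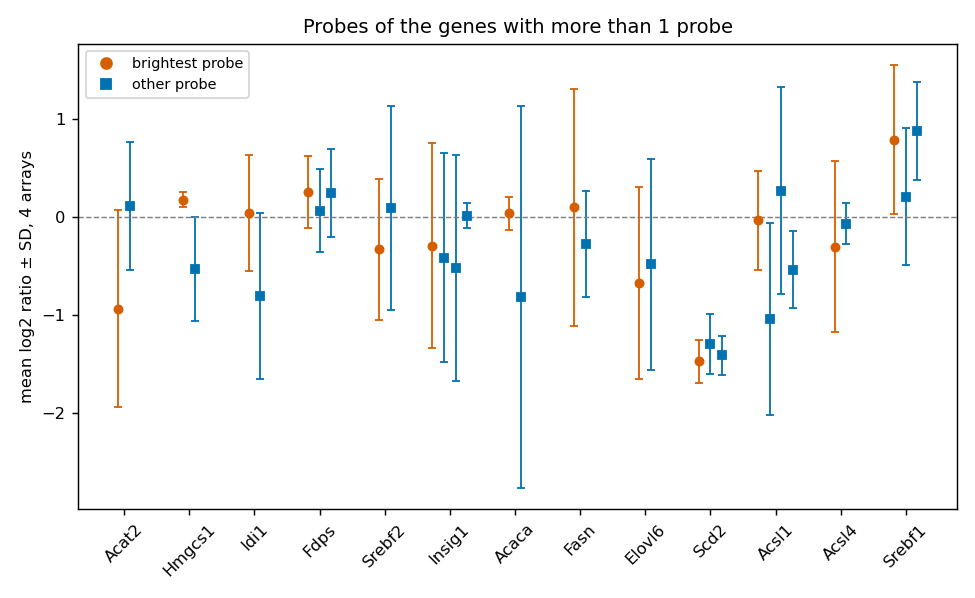
Mean log2 ratio of mucosa over bulb with bars of 1 SD over the 4 arrays, for each probe of the 13 genes that have more than 1; circles mark the brightest probe and squares the others. The 3 Scd2 probes lie between -1.47 and -1.29 with short bars, whereas the probes of Acaca, Acsl1 and Idi1 lie apart.

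The enzymes and regulators around the members were read from 9 further lists of 131 genes in all. Of these, 12 were lower and 1 was higher in mucosa cells, which is 9.92% called against 6.62% of all gene names, and the median log2 ratio was -0.19. The parts that sense sterol and cleave SREBP factors did not pass in limma, with means of -0.15 for Scap, -0.02 for Mbtps1, -0.50 for Mbtps2 and -0.44 for Insig2. Nor did the liver X receptors Nr1h2 and Nr1h3, at -0.20 and -0.22. The control layer of the pathway thus held 1 called gene, Erlin1, of 11 in its list.

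Erlin1 takes part in the breakdown of proteins at the endoplasmic reticulum, and its mean log2 ratio was -1.78 ± 0.80 (limma adjusted p = 0.0315, n = 4). Among 11 genes listed under other sterol synthesis, Hsd17b4, better known as an enzyme of peroxisomal oxidation, passed at -1.44 ± 0.68. The median of that list was -0.72. The list was not confined to sterol enzymes, as it also held Coq2, Dhdds and Ggps1. Of 17 genes of sterol uptake, storage and movement, the lysosomal lipase Lipa, which frees cholesterol from its esters, passed at -1.78 ± 0.39. The largest ratio among 12 genes of sterol efflux belonged to Abca1, a cholesterol exporter, at -1.18 ± 0.86 (limma adjusted p = 0.107, n = 4). Sterol genes outside synthesis therefore contributed 2 called genes, Erlin1 and Lipa, which were 9.09% and 5.88% of their lists. The list of other sterol synthesis had 9.09% called and that of efflux 0%, against 6.62% of all gene names.

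More of the called genes handle fatty acids, from lists that together hold more genes. Of 18 other genes of fatty acid synthesis and supply, 3 were lower in mucosa cells, with a list median of -0.02. The 11 genes listed under other sterol synthesis, not all of them sterol enzymes, had the lower median, -0.72, and the lower one on each array. The order of the 2 arms among the members was thus not seen in these lists. Mid1ip1, which promotes the assembly and activity of acetyl-CoA carboxylase, had a mean log2 ratio of -2.03 ± 0.41, at -1.48, -2.14, -2.05 and -2.45 on the arrays. Elovl2, which elongates very long polyunsaturated chains, was at -1.88 ± 0.60, though well above background in mucosa cells on 2 arrays only. Ptplb, a dehydratase of the elongation cycle, was at -1.07 ± 0.40.

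Among 11 carriers of fatty acids, Fabp7, the fatty acid binding protein of glia, was at -2.94 ± 0.49, and the acyl-CoA binding protein Acbp at -1.56 ± 0.41. Fabp4, the form of adipocytes and macrophages, was the called gene with a higher level in mucosa cells, at 1.65 ± 0.82. Of 19 genes of glycerolipid assembly, Gpam and Agpat2, acyltransferases of its first steps, were at -1.79 ± 0.53 and -1.39 ± 0.62. Of 24 genes of fatty acid oxidation, Hadha and Hadhb, the subunits of the mitochondrial trifunctional protein, were at -1.36 ± 0.45 and -1.53 ± 0.08. Of 9 genes of lipid droplets none passed in limma, and the largest ratio was that of Abhd5 at -0.93 ± 1.26 (adjusted p = 0.293, n = 4).

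**Figure D4:**
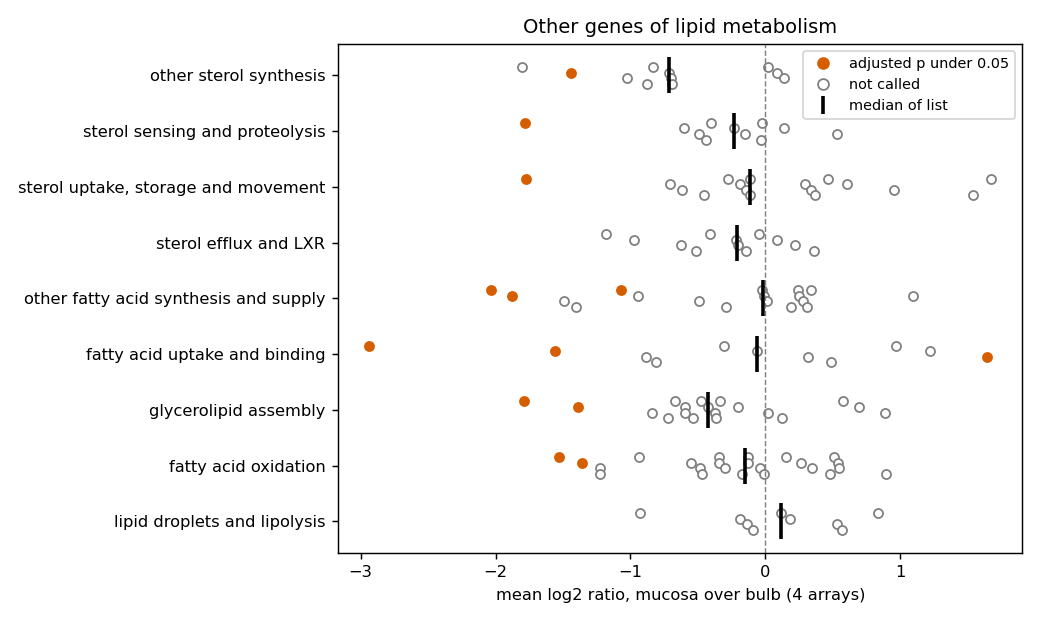
Mean log2 ratio of mucosa over bulb over 4 arrays for genes of 9 other lists of lipid metabolism, 1 circle per gene, with filled circles for genes past the threshold and a black bar at each list's median. Filled circles lie left of 0 except for Fabp4 at 1.65, and the list medians lie between -0.72 and 0.12.

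These calls also depended on the arrays used, and with 1 replicate left out fewer of all gene names were called. Of the 13 called genes, Fabp7 alone passed in limma without each replicate in turn. The others lost the call without at least 1 replicate, and between 1 and 5 passed when 1 replicate was left out. With the scanner's processed signals 7 of the 13 missed the threshold.

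Markers of cell types also differed between the tissues. Over all gene names, 3.39% were called lower and 3.24% higher in mucosa cells. Of 12 markers of ensheathing cells and Schwann cells, 6 passed as lower and 1 as higher in mucosa cells, and their summed signal was 20722 to 23869 in mucosa cells and 43628 to 60633 in bulb cells. Of 10 genes of oligodendrocytes and myelin, 4 were lower, with sums of 22389 to 23189 and 41519 to 52798. Of 10 fibroblast genes, 5 were higher and 2 lower, with sums of 269691 to 317386 in mucosa cells and 106391 to 155106 in bulb cells. The lower ones, Fbln1 and Dcn, had mean log2 ratios of -4.15 and -2.01, against the direction of the sums. Of the 6 adipocyte genes listed, 4 were tested and Fabp4 was higher, with sums of 1293 to 2578 and 649 to 845, and Pparg did not pass the filter on dim probes. The part of these cell types in the Scd1 and Scd2 results was not tested.

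Of 3 smooth muscle genes 2 were higher and 0 lower, with sums of 79046 to 93336 in mucosa cells and 12474 to 19004 in bulb cells. Of 6 astrocyte genes 2 were lower, and of 6 neuronal genes 3 were lower, all neurofilaments. Of 5 epithelial genes and of 3 endothelial genes, 1 was higher and 1 lower in each list. The tested genes of all marker lists were well above background on at least 2 arrays in mucosa cells and 3 in bulb cells. The filter on dim probes already asked for 3 or more arrays of either channel, and Pparg and Pecam1 were not tested. Ugt8 was the gene with 2 arrays in mucosa cells.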

How the data were processed

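Ratios came from 4 two-colour arrays with mucosa cells in Cy5 and bulb cells in Cy3. Agilent Feature Extraction read the spots, in version 10.5.1.1 per the file headers and 9.1 per the submitters' processing notes. The deposited intensity values of spots and local background are linear and not normalized. Per the file headers, the scanner's ratio is a log10 value, Cy5 over Cy3. The deposited value table equals that log10 ratio at all 45018 features of each array, with column medians of 0, 0, 0 and 0.000422, so its scale, centring and direction are known. It has 0 columns without a sample. All arrays were on 1 slide with 1 scan time.

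Intensities were corrected with normexp (offset 50) and normalized by loess within arrays (limma 3.58.1, R 4.3.3), leaving out control and outlier spots. Probes were kept where a share of 0.5 or more of their spots was well above background, on 3 or more arrays of either channel, and where every array gave a ratio. The brightest probe stood for each of 31868 names. The mean log2 ratio was tested against 0 with lmFit and eBayes (6.36 degrees of freedom), with Benjamini-Hochberg adjustment over all names at 0.05, and ± is the SD. The fit was tested on simulated data. Normalized signals combine the ratio with the mean intensity of the spot. Whether such signals overlap between tissues is a description that ignores the pairing. The share of all gene names without overlap is not given here, so overlap is no test. The offset draws the ratios of dim probes toward 0, and PCR can change the proportions of transcripts. Python 3.11.15 with pandas 2.3.3, numpy 2.4.6 and matplotlib 3.10.9 read the sequences and drew the figures. Of 31 members, 24 matched a RefSeq promoter.

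Each pair shares an array, so the ratio is the paired difference, as the design text states. Alternatives changed the background, normalization, filter, outlier or saturated spots, the rule for probes, the variance model, array weights, pairing and each replicate. A correction for probe GC content and the omission of Sc5dl were added after seeing the data. Per-array ratios were given for called members, those with a mean of at least 1 in size, the largest 3 of each arm and those whose probes differ in sign, and for others where arrays split. From other lists up to 4 called genes, or the largest ratio, were named, besides regulators fixed by name, of which some are not reported here. The members and lists were chosen with earlier results of these data known.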

Additional observations from a re-analysis of the deposited data

Results flagged for a closer look

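In 2 of 33 sets of 4 array values, 1 array stood apart by Dixon's criterion at the 95% level, and chance gives about 1 in 20. The log2 ratio of Nsdhl was -0.078 in replicate 1, against 0.48 to 0.55 in the others. That of Elovl6 was 0.79 in replicate 3, against -1.24 to -1.05 in the others, at its brightest probe. Its other probe was at -1.56, -1.24, 0.32 and 0.56 in replicates 1 to 4, so replicate 3 did not stand alone there.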

How the results depend on the processing

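The 31 genes were computed under 19 alternatives, and 565 of 588 values kept their call and moved by less than the SD between arrays where not called. Some alternatives could not move a member's ratio. No brightest probe of a member had a saturated spot, and the looser filter, the trended variance and the unpaired channels used the same ratios. The scanner's processed signals and the deposited ratio are the same data. These counts are therefore not of independent checks. Without 1 replicate, the gene names called numbered 562 to 1061, the fatty acid members called 0 to 1 and the sterol members 0, with fewer arrays in each fit. The fatty acid members called were 1 with the scanner's processed signals and 1 with the deposited ratio (Scd2), and the sterol members called were 1 (Pmvk) with median centring, with a trended robust variance and with unpaired channels. Without the pairing, as unpaired channels after Aquantile (no replicate block), 3483 gene names, 4 fatty acid members and 1 sterol member were called; Acly and Elovl5 were the added fatty acid members. Elovl5 also passed with scale normalization, a trended variance and array weights (limma adjusted p = 0.0481, 0.0447 and 0.0429). The cause of these changes was not tested. Scd2 passed in 15 of 15 alternatives with all arrays and Scd1 in 13, with the same limit on these counts. Signs changed in 27 values of 11 members, none of them called. Median differences between the arms ran from 0.20 to 0.55 without 1 replicate, and without Sc5dl the difference was 0.60. Only 4 arrays of 1 dye orientation were measured, which limits what can be called.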
